A study of Homo sapiens with 7 samples.

Results

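hsa-miR-184 is 1 of the 480 mature microRNAs counted in a set of RNA captures made from A375, an established human melanoma cell line. Its row was taken by name. It was chosen by its measured reads, which were present in every capture made with probes to the BRAF-X1 mRNA and 0 in the capture made with scrambled probes, so that contrast is described here without a test. BRAF encodes a kinase of the growth signalling pathway through MAPK, and X1 is an mRNA isoform of it with its own 3′ UTR. In miR-CATCHv2.0 an mRNA is fixed to its bound proteins and microRNAs with formaldehyde and pulled down with probes, and the microRNAs that come with it are sequenced. All 7 captures came from A375 cells that carried no other treatment in the labels. The cells were collected 24 h after seeding and fixed in 1% formaldehyde for 10 min. Of the captures, 3 used the ODD probe set, 3 used the EVEN probe set, both directed at the X1 3′ UTR, and 1 used scrambled probes. The 6 ODD and EVEN captures are also called X1-probe captures. The ODD and EVEN captures were independent of each other per the series' design text, but they all come from a single cell line.

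A microRNA acts inside an Argonaute protein and finds its mRNA targets mainly through its seed, bases 2 to 8 from the 5′ end, which pairs with sites that often lie in the 3′ UTR. miR-184 is known for its high level in the cornea and lens. In the corneal epithelium it is known to counter the action of miR-205 on a shared target mRNA.

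The mature sequence of miR-184 is shown first because its seed sets which sites it can pair with. The microRNAs that follow are those that had the same detection pattern, with at least 1 read in each of the 6 X1-probe captures and 0 in the scrambled one. miR-1273h-5p also had this pattern but had no sequence to print. The last line is the measured microRNA nearest to miR-184 in sequence. Sequences are the RNA strand, 5′ to 3′, from RefSeq on GRCh38.p14, with the seed in capitals.
miR-184: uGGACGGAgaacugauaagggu
miR-17-5p: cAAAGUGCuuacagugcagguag
miR-181c-5p: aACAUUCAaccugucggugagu
miR-128-3p: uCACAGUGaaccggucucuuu
miR-769-5p: uGAGACCUcuggguucugagcu
miR-3180-5p: cUUCCAGAcgcuccgccccacgucg
miR-98-5p: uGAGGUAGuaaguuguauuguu
miR-181a-3p: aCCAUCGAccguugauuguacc
miR-421: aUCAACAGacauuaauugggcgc
miR-6772-5p: uGGGUGUAggcuggagcugagg
miR-4776-5p: gUGGACCAggauggcaagggcu

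The MIR184 hairpin of 84 bases lies on the plus strand at chr15:79209788-79209871, and mature miR-184 takes up its bases 53 to 74, at chr15:79209840-79209861. In RefSeq the hairpin falls within the span of ANKRD34C-AS1, a lncRNA gene. The nearest other microRNA gene in the sequence table, MIR5572, lay 1371.2 kb away. The mature sequence has 22 bases, 50.0% of them G or C, and 1 genomic locus in that table. It also had 1 row in the expression table, so no choice between hairpin rows entered its read counts.

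No other microRNA in the sequence table shared the seed of miR-184. Of the 480 mature names measured, 406 had a sequence in that table, and those could be compared. The nearest in sequence was miR-4776-5p, at 8 edits (bases changed, added or removed), with 1 read in all 7 libraries together. Next were 6 microRNAs at 9 edits, with 1 to 18 reads each, among them miR-1255b-5p, miR-1269a and miR-1307-5p. A further 24 stood at 10 edits, with 1 to 1282 reads each. The 10 microRNAs of the shared detection pattern that had a sequence, miR-184 among them, carried 10 different seeds, and their G and C content ran from 31.8% to 72.0%.

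The deposited values are RPM, reads scaled to a library total of 1e+06 over all microRNA rows. Every value was a whole multiple of the smallest non-zero value of its library, so reads could be recovered by dividing by it. Depth ran from 4049 reads in ODD replicate 3 to 35508 in ODD replicate 2, with 4647 in the scrambled library. A single read was therefore worth 28.2 RPM at the greatest depth and 215 RPM for the scrambled capture. RPM is a share of the microRNA reads of a library and does not show how much RNA a capture recovered. The library totals and depths used here include every row of the 17 mature names that had several hairpin rows. With totals over 1 row per mature name, miR-184 had 545 RPM in ODD replicate 2 and 2626 RPM in ODD replicate 3. As deposited, these values were 394 and 1976 RPM, so the levels, shares and limits below depend on that total. A microRNA was tested if it had 10 RPM in at least 3 of the 7 libraries. That is under the worth of 1 read in every library, so 1 read in each of 3 libraries was enough. Of the 242 microRNAs tested, 77 had 0 reads in the scrambled library, against 72 in ODD replicate 3, 71 in EVEN replicate 3 and 14 in ODD replicate 2. The labels name a melanoma line, and of the 10 melanocyte and melanoma microRNAs listed, 5 had reads. These were miR-204-5p, miR-221-3p, miR-222-3p, miR-146a-5p and miR-509-3p, while miR-211-5p and the other 4 were not analysed here. Their summed level was 29811 to 40751 RPM in the X1-probe captures and 37874 RPM in the scrambled capture.

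miR-184 was a microRNA of modest level with X1 probes, and its 52 reads there were spread over all 6 captures. With ODD probes it was counted 6 times in replicate 1 (554 RPM), 14 times in replicate 2 (394 RPM) and 8 times in replicate 3 (1976 RPM). With EVEN probes the counts were 7 in replicate 1 (753 RPM), 13 in replicate 2 (897 RPM) and 4 in replicate 3 (839 RPM). The scrambled capture had 0 of 4647 reads. All 6 X1-probe captures thus lay above the scrambled one, ODD replicate 3 was the highest, and ODD replicate 2, the deepest library, was the lowest.

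**Figure D1:**
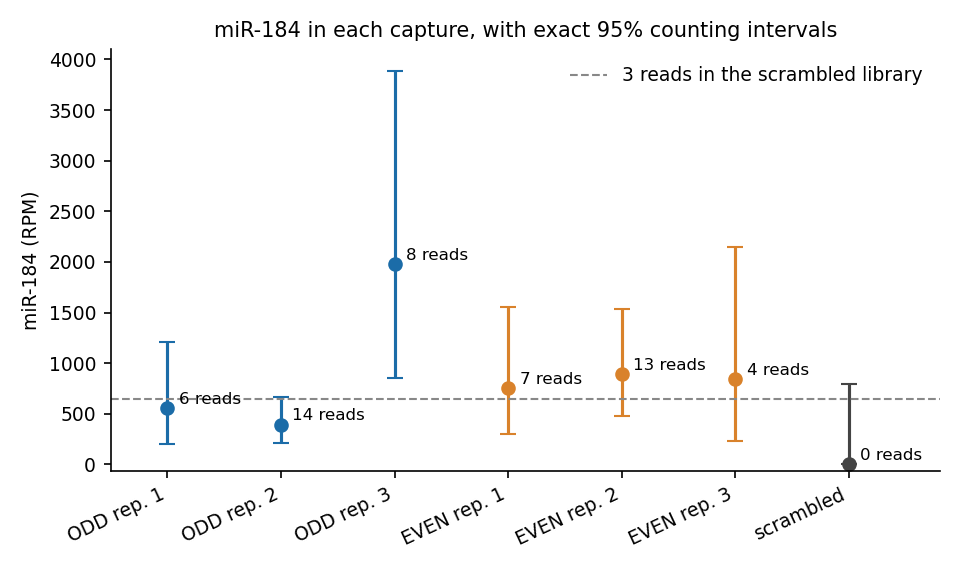
miR-184 level (RPM, vertical axis) in each of the 7 captures, with the reads behind each value. Points are single libraries, bars are exact 95% intervals for counting error, and the dashed line is the worth of 3 reads in the scrambled library (646 RPM). ODD replicate 3 stands highest at 1976 RPM, and ODD replicates 1 and 2 lie under the dashed line.

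Exact Clopper-Pearson 95% intervals show how little the single libraries fix these levels. The interval was 203 to 1206 RPM in ODD replicate 1, 216 to 661 RPM in ODD replicate 2 and 853 to 3889 RPM in ODD replicate 3. It was 303 to 1552 RPM, 478 to 1533 RPM and 229 to 2147 RPM in EVEN replicates 1, 2 and 3. The intervals of ODD replicates 2 and 3 did not overlap, while those of the EVEN captures overlapped each other. These intervals cover counting error only and leave out the spread between captures. They also take each read as a separate draw, although PCR copies of a molecule were not told apart.

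By rank, with 1 as the most abundant mature microRNA of a library, miR-184 stood at 87, 99 and 55 in ODD replicates 1, 2 and 3. In EVEN replicates 1, 2 and 3 it stood at 70, 73 and 71. Its share of the reads was 0.0394% in ODD replicate 2 and 0.198% in ODD replicate 3, the lowest and highest of the X1-probe captures. It thus ranked between 55 and 99, and nearly the same in the 3 EVEN captures.

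The mean with X1 probes was 902 ± 558 RPM (SD, n = 6), with a median of 796 RPM. Pooling the reads, which weights each library by its depth, gave 52 of 78930 reads or 659 RPM (exact 95% interval 492 to 864 RPM). That interval covers counting error only and leaves out the spread between captures. Without ODD replicate 3 the mean was 688 ± 209 RPM (SD, n = 5). The SD was thus smaller by more than 2-fold without that single capture. Since the capture left out was the highest, a smaller SD was to be foreseen.

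The scrambled capture sets only an upper limit for miR-184. At its depth, the pooled X1-probe level predicted 3.06 reads of miR-184. A count of 0 in 4647 reads allows a level of up to 646 RPM at 3 reads, and up to 794 RPM by the exact 95% interval. The X1-probe mean was 1.40-fold the limit of 3 reads and 1.14-fold the exact limit. The pooled X1-probe level was 1.02-fold the limit of 3 reads, and the mean without ODD replicate 3 was 1.07-fold, but both were under the exact limit. The EVEN mean was 1.29-fold and the EVEN pooled level 1.30-fold the limit of 3 reads (1.05-fold and 1.06-fold the exact limit). The ODD mean was 1.51-fold the limit of 3 reads (1.23-fold the exact limit), but the pooled ODD level, 556 RPM, and the ODD mean without replicate 3, 474 RPM, were under both limits. The fitted log2(RPM + 10) difference between X1 and scrambled probes was 6.33, a size set by the pseudocount of 10 RPM and not a bound.

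The scrambled library could be set beside X1-probe libraries of similar depth. The descriptions carry a number of unknown meaning that is 12 for the scrambled library and for both replicates 3. In those libraries miR-184 had 8 of 4049 reads with ODD probes, 4 of 4767 with EVEN probes and 0 of 4647 with scrambled probes. Pooled, the 2 X1-probe libraries held 12 of 8816 reads, or 1361 RPM (exact 95% interval 704 to 2376 RPM). This interval leaves out the spread between the captures, and 8 of the 12 reads came from ODD replicate 3. The levels with the numbers 9 and 10 could not be set beside a scrambled library of the same number.

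Across all tested microRNAs, the scrambled library lay strictly below every X1-probe library for some and strictly above every one for more. It lay above all 6 X1-probe libraries for 55 of the 241 other than miR-184. For 27 of 242, or 11.2%, it lay below all 6. Ties at 0 reads enter neither count. They were many, since 77 of the 242 had 0 scrambled reads and most of these also had 0 in some X1-probe library. The 2 counts thus do not show that the scrambled library was more often high than low. The narrower pattern of miR-184, with no scrambled read and at least 1 read in every X1-probe library, was shared by 11 of 242, or 4.55%, miR-184 included. Since miR-184 was chosen for this pattern, nothing is read from its being among them. miR-184 had the most reads of the 11, followed by miR-17-5p, from the cluster of miR-17 and miR-92a, with 50. The other 9 were miR-181c-5p with 25 X1-probe reads, miR-128-3p and miR-769-5p with 24 each, miR-3180-5p with 23, miR-98-5p with 22, miR-181a-3p with 21, miR-421 with 20, miR-1273h-5p with 18 and miR-6772-5p with 17. Among them were 2 members of the miR-181 family, and miR-98-5p, which belongs to the let-7 family.

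For a comparison at the same level, miR-184 was set beside the 10 tested microRNAs next above and the 10 next below it in mean X1-probe RPM. It ranked 70 of the 242 in that mean. The 20 neighbours had means of 728 to 1346 RPM and 50 to 110 X1-probe reads. In the scrambled library they had 0 to 15 reads with a median of 4, and 1 of the 20, miR-17-5p, had 0. The scrambled library lay below all X1-probe libraries for 3 of the 20 and above all of them for 4. At this level most microRNAs were thus seen in the scrambled library, and miR-17-5p was the exception among the neighbours. miR-184 was chosen for its 0 scrambled reads, so nothing is read from its contrast with them. With neighbours taken by pooled X1-probe reads instead, 8 of the 20 were the same, the scrambled library had a median of 2.5 reads for them, and again 1 of 20 had 0.

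**Figure D2:**
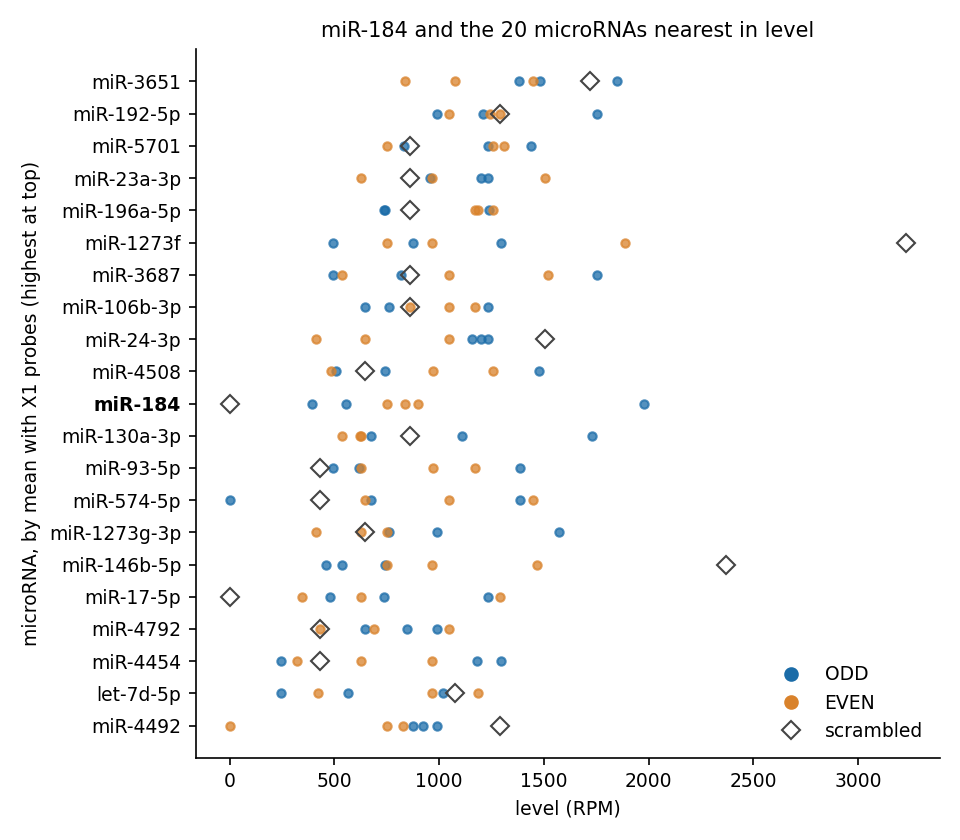
Level (RPM, horizontal axis) of miR-184 and its 20 neighbours in mean X1-probe RPM, 1 microRNA per row. Filled points are single ODD and EVEN libraries and open diamonds the scrambled library. The diamonds of miR-184 and miR-17-5p lie at 0, and those of the other 19 lie between 430 and 3228 RPM.

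The 2 rows next above and the 2 next below miR-184 give the scrambled reads of microRNAs of similar mean. miR-4508, next above, had 906 ± 405 RPM over the X1-probe captures (SD, n = 6) against 646 RPM from 3 scrambled reads. miR-24-3p, of the miR-23/27/24 clusters, had 950 ± 339 RPM (SD, n = 6) and 1506 RPM from 7 scrambled reads. Below it, miR-130a-3p had 884 ± 461 RPM (SD, n = 6) and 861 RPM from 4 scrambled reads. miR-93-5p, a relative of miR-17-5p from the miR-106b-25 cluster, had 878 ± 355 RPM (SD, n = 6) and 430 RPM from 2 scrambled reads. These 4 were taken as the nearest in mean, so nothing is read from their closeness in mean to miR-184.

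The spread of miR-184 between X1-probe captures was at the high end of that of its neighbours. It was measured by a dispersion index, the sum over the 6 captures of (reads counted minus reads predicted by depth) squared over reads predicted, divided by 5, which is about 1 where counting error alone acts. The index was 3.24 for miR-184, above all 20 neighbours, whose values ran from 0.500 to 2.82 with a median of 1.57. Of the 20 neighbours taken by pooled X1-probe reads, 2 were above it, let-7c-5p (25.4) and miR-3605-5p (3.72). By coefficient of variation of the RPM, miR-184 had 61.9% and the first 20 neighbours had 21.6% to 62.7%. Over the other 241 tested microRNAs the median was 1.40, and 42 had a higher index than miR-184. Without ODD replicate 3 the index of miR-184 was 1.40, and 11 of the 20 neighbours were above it. That capture was left out because miR-184 was highest there, so a fall of its index was to be foreseen.

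The largest departure of miR-184 from its prediction was in ODD replicate 3. There the pooled X1-probe level predicted 2.67 reads of miR-184 and 8 were counted, a higher ratio than for any of the 20 neighbours, which stood at 0 to 2.27 times their prediction. In ODD replicate 2 it predicted 23.4 reads and 14 were counted, 0.598 times the prediction, under the 0.678 to 1.21 of the neighbours. Both hold for the neighbours in mean RPM. Of those taken by pooled X1-probe reads, let-7c-5p went further than miR-184 in both captures. It had 5680 RPM in ODD replicate 3 against 824 RPM pooled, and 16 of its 65 X1-probe reads in ODD replicate 2. In the EVEN captures miR-184 stood at 1.14, 1.36 and 1.27 times its pooled level, within the neighbours' range each time. None of the 20 neighbours was highest in ODD replicate 3 and lowest in ODD replicate 2, as miR-184 was, and 8 of the other 241 tested microRNAs were. These 2 libraries are also the shallowest and the deepest, and the part of depth in this was not tested.

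**Figure D3:**
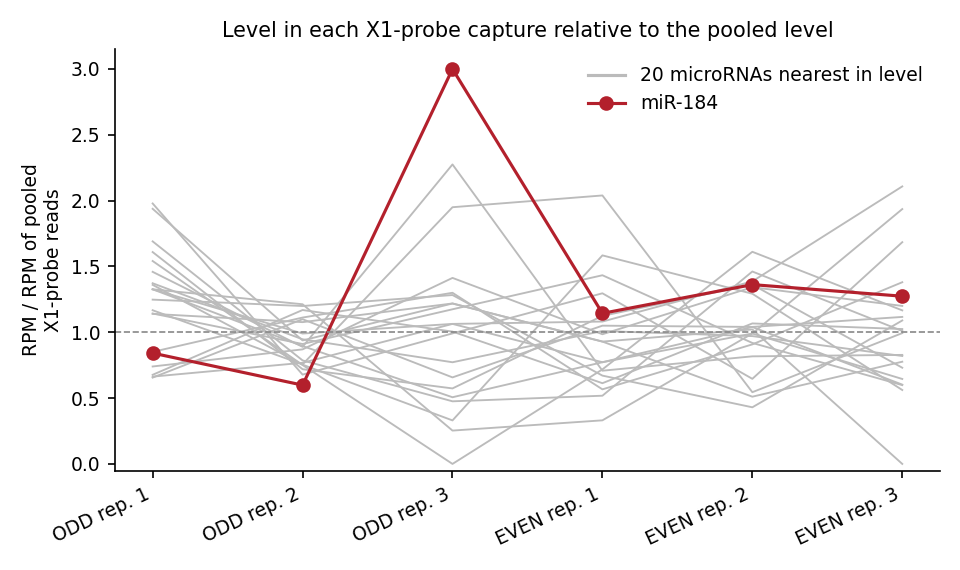
RPM in each X1-probe capture divided by the RPM of the pooled X1-probe reads (vertical axis, no unit) for miR-184 in red and its 20 neighbours in grey; the dashed line marks 1. miR-184 stands above all grey lines in ODD replicate 3, where they reach 2.27, and under all of them in ODD replicate 2, at 0.598.

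ODD and EVEN are separate probe sets to the same 3′ UTR, and the comparison between them asks whether the level of miR-184 depended on the set. miR-184 was not chosen on this contrast, and it was tested. No difference between the probe sets was detectable at this depth. The ODD captures had a mean of 975 ± 871 RPM (SD, n = 3), and the EVEN captures one of 830 ± 72.3 RPM (SD, n = 3). The 3 EVEN captures lay inside the range of the ODD captures, above ODD replicates 1 and 2 and below ODD replicate 3. On the log2(RPM + 10) scale ODD minus EVEN came to -0.13, with an SE of 0.81 and a 95% interval from -1.78 to 1.53 (limma, adjusted p = 0.982 over 242 microRNAs). The mean RPM and the mean log2 value differ in sign because ODD replicate 3 weighs more on the linear scale. An exact two-sided permutation test of the RPM gave p = 1, where 0.1 is the smallest that 3 against 3 allow. The interval includes changes of more than 2-fold in both directions, so the data do not show that the probe sets captured miR-184 equally.

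In this comparison 1 of the 242 microRNAs, or 0.413%, was called at an adjusted p under 0.05, and miR-184 was not called. The ODD and EVEN libraries did not overlap for 17 of 242, or 7.02%, and those of miR-184 did. Its log2 difference was smaller in size than the median of 0.60 over all tested microRNAs, with 41 of them smaller still. The direction rested on single captures: the difference was 0.097 without ODD replicate 1, 0.34 without ODD replicate 2 and -0.81 without ODD replicate 3 (limma, lowest adjusted p = 0.959 over the 6 fits that left out 1 capture). Read by replicate number, ODD was lower than EVEN in replicates 1 and 2, with log2 differences of -0.44 and -1.17, and higher in replicate 3, with 1.23.

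The spread of miR-184 was unlike in the probe sets. The EVEN captures had a coefficient of variation of 8.71% and the ODD captures 89.3%, and the 2 ODD captures other than replicate 3 had 23.9%. With 4 to 13 reads behind each EVEN value, the EVEN values lay much closer together than their counting intervals are wide. No test of the difference in spread was made.

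To show which microRNAs followed the profile of miR-184, the Pearson correlation of log2(RPM + 10) was taken with 192 others that were tested and reached a mean of 100 RPM. It is given as a description, since the captures share the 7 library depths and few reads lie behind each value. Over the 7 captures the highest were miR-17-5p (0.957), miR-181a-3p (0.951), miR-98-5p (0.943), miR-6772-5p (0.925) and miR-140-3p (0.914). The first 4 have 0 scrambled reads, which a logarithm with a small pseudocount places far below the other values. miR-140-3p, a microRNA known from cartilage, is the exception, with 205 X1-probe reads and 6 scrambled reads. Under pseudocount 250 RPM, 3 of these 5 were among the top 5, and by Spearman correlation 1 was.

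**Figure D4:**
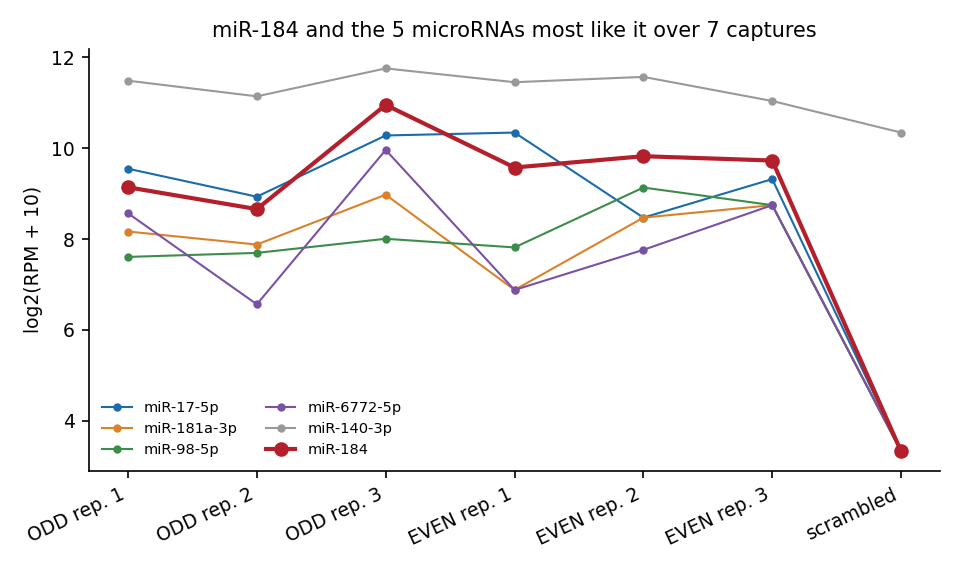
Levels on the log2(RPM + 10) scale (vertical axis) of miR-184 and the 5 microRNAs with the highest Pearson correlation to it, by capture. The profiles of miR-184, miR-17-5p, miR-181a-3p, miR-98-5p and miR-6772-5p meet at 3.32, the value of 0 reads, in the scrambled capture, while miR-140-3p stays above them in all 7.

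Within the 6 X1-probe captures, where the scrambled value has no part, other microRNAs came first. miR-130b-3p had the highest correlation with miR-184, at 0.908. It had 5, 19 and 6 reads in ODD replicates 1, 2 and 3, 5, 10 and 3 reads in EVEN replicates 1, 2 and 3, and 1 scrambled read. Next were miR-106b-3p (0.820), miR-30a-5p (0.792), miR-1304-3p (0.779) and miR-6772-5p (0.773). miR-6772-5p was the 1 name in both top lists, with 17 X1-probe reads in all. Of these 5, 3 were also in the top 5 by Spearman correlation and 3 under pseudocount 250 RPM. miR-17-5p, nearest to miR-184 over 7 captures, was not among these 5.

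Because miR-184 is known from the cornea and lens, other microRNAs of those tissues and of epithelia were read beside it. Of the 8 others listed for cornea, lens and related eye tissue, 7 had reads and 4 were tested. Their summed level was 9980 to 15065 RPM with ODD probes, 11838 to 13845 RPM with EVEN probes and 12696 RPM with scrambled probes, so the scrambled value lay within the range of the X1-probe captures. Most of this came from miR-182-5p, of the sensory organ cluster with miR-183 and miR-96, at 7264 ± 1368 RPM over the X1-probe captures (SD, n = 6) against 10329 RPM in the scrambled one. miR-31-5p had 2512 ± 905 RPM (SD, n = 6) against 1076 RPM in the scrambled capture. miR-204-5p, a pigment cell and eye microRNA, had 2286 ± 517 RPM (SD, n = 6) against 861 RPM. miR-205-5p, the epithelial counterpart of miR-184, had 3 reads in 2 of the 6 X1-probe captures and 0 scrambled reads, so its level could not be set beside that of miR-184.

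The epithelial and keratinocyte list held 8 names, of which miR-203a-3p and miR-203a stand for the same microRNA. Of these names 3 had reads, miR-205-5p, miR-200b-3p and miR-141-3p. Their summed level was 197 to 494 RPM with ODD probes, 108 to 210 RPM with EVEN probes and 0 with scrambled probes. It was highest in ODD replicate 3, as were the sums of the eye tissue, melanocyte and melanoma, muscle and neuronal lists. The defining epithelial microRNAs miR-200c-3p, miR-203a and miR-429 were not analysed here. These sums rest on 3, 7 and 6 X1-probe reads of the 3 microRNAs, and their part in the level of miR-184 was not tested. Blood, muscle and neuronal lists had 5 of 7, 2 of 4 and 3 of 5 members with reads, at summed levels of at most 629, 741 and 988 RPM in any X1-probe capture. In the scrambled capture these sums were 215, 646 and 1291 RPM.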

How the data were processed

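Small RNA from 7 A375 captures was sequenced. CASAVA 1.8 and cutadapt 1.2.1 are named in the submitters' processing notes. An aligner, a rule for counting, an annotation and a build were not given in the sources used here. Per the labels and files, the authors deposited RPM for 498 hairpin and mature pairs, and each column summed to 1e+06. All values (100%) were whole multiples of 1 read at a tolerance of 1e-06 reads. Each mature name was represented by its hairpin row of highest RPM. microRNAs with 10 RPM in at least 3 of 7 libraries were tested with limma 3.58.1 (R 4.3.3) on log2(RPM + 10), 1 mean per group, eBayes with trend, Benjamini-Hochberg at 0.05, two-sided; the script was tested on simulated data. Named were miR-184, its neighbours in level (those with 0 scrambled reads and the 2 nearest on each side), the 5 most alike in profile, seed and sequence relatives, microRNAs of the same detection pattern and marker list members with reads. miR-184, the lists and the rules were chosen with earlier results of these data known.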

Additional observations from a re-analysis of the deposited data

Results flagged for a closer look

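Among the 6 X1-probe captures, the level of miR-184 in ODD replicate 3, 1976 RPM from 8 reads, lay far from the others. The gap to the next highest capture, at 897 RPM, was 0.682 of the whole range, above Dixon's 95% critical value for 6 samples. For normally distributed values chance flags about 1 in 20 groups in this way, a rate that need not hold for RPM made of few reads. Of the 20 microRNAs nearest in level 1 met the criterion. Of the other 241 tested 30 did, a larger share than 1 in 20.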

How the results depend on the processing

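The ODD minus EVEN difference of miR-184 was not called in any of 16 other settings (limma, adjusted p from 0.959 to 1), and 14 of them kept the sign. It ran from -0.81 to 0.34 over the fits that left out 1 capture, with the sign turned without ODD replicate 1 (0.097) and ODD replicate 2 (0.34). The number of microRNAs called between ODD and EVEN probes, 1 as reported, was 0 with pseudocount 1 RPM, no filter, a filter on 6 libraries, RPM over 1 row per mature name, quantile normalization and the replicate block, with 2 to 12 at an unadjusted p under 0.05 by limma. It was 3 without the eBayes trend and 0 to 1 over the fits that left out 1 capture. With the replicate block the difference of miR-184 was -0.13 (limma, adjusted p = 0.961). The deviations of ODD and EVEN libraries with the same number correlated at -0.044, 0.072 and 0.019 over 242 microRNAs, none over 0.1. ODD replicates 2 and 3 correlated best with the EVEN library of their own number and ODD replicate 1 with EVEN replicate 3, so the numbers were not taken as pairs. The X1 minus scrambled log2 difference was 9.63, 3.17 and 2.09 with pseudocounts 1, 100 and 250 RPM, since 0 reads take the value of the pseudocount, against 6.33 as reported. It was 5.07 with quantile normalization, where the cause was not tested. Leaving out ODD replicate 3 was chosen after seeing the data. It gave 31 microRNAs with the scrambled library strictly below every X1-probe capture, in place of 27. It gave 14 with no scrambled read but some in every X1-probe capture, in place of 11. The planned count models were not run. The control is a single library of 4647 reads.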
